A study of Homo sapiens with 24 samples.

Results

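The tripartite motif (TRIM) genes encode a large family of proteins with a RING finger, 1 or 2 B-box zinc fingers and a coiled coil, most of which act as E3 ubiquitin ligases. The 65 genes described here were taken by a rule on names, out of 38735 named genes. They are the genes of the table whose symbol is TRIM followed only by digits, together with TRIM16L. The rule used no values, but it was set with earlier results of these data known. The rule left out 2 further genes of that form, which are not analysed here. Of the 65 genes, 40 had a mean of at least 10 normalized counts over the 24 libraries and were tested among 13900 genes, 16 had reads but stayed under that mean, and 9 had no read in any library.

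RNA was sequenced from THP-1, a human cell line long established from a monocytic leukaemia, which in all groups was first turned into macrophage-like cells by 24 h with 100 nM of the phorbol ester PMA. DCVC_LPS cells were then given 5 µM DCVC, a cysteine conjugate of trichloroethylene, for 24 h, and in fresh medium 100 ng/mL LPS, a bacterial cell wall component, for 4 h. LPS cells received the LPS without DCVC, DCVC cells received the DCVC without LPS, and Control cells received medium only. Each group held 6 libraries with the letters A to F, and since the labels do not say that these came from separate cultures, p-values measure only the spread between the libraries, which may be technical.

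In the resting or stimulated macrophage, TRIM ligases sit at several points of innate defence. Some attach ubiquitin chains to cytosolic RNA and DNA sensors or to the kinases and adaptors behind them, some bind viral components directly, and many of these are themselves induced by interferon, which LPS elicits through TLR4 and the adaptor TRIF. Others act far from immunity, as corepressors of transcription with a PHD finger and a bromodomain, as microtubule-binding proteins with a COS box, or as ligases with NHL repeats that are best known from neurons and muscle.

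The values are read counts that the depositors divided by a factor for each library. Reads in named genes ran between 20352552 and 26232127 per library in DCVC_LPS, between 19985317 and 30107819 in LPS, between 18478618 and 22015664 in DCVC, and between 19675823 and 27986524 in Control. The normalized totals averaged 21831254 ± 235113 in DCVC_LPS, 29427331 ± 839114 in LPS, 17774466 ± 305501 in DCVC and 21135356 ± 563705 in Control (SD, n = 6 each). Scaling all libraries to the same total therefore moves the median log2 change of all tested genes to -0.50 for LPS minus Control, 0.22 for DCVC minus Control, 0.36 for DCVC_LPS minus LPS, -0.33 for DCVC_LPS minus DCVC and 0.20 for the interaction, against -0.03, -0.03, -0.07, -0.03 and 0.02 on the deposited scale. All 10 macrophage markers examined had a mean of at least 10, and no marker of T cells, B cells, epithelium or erythroid cells did. Of 4 fibroblast markers, 2 did, and their summed level ran between 67.7 and 117 in DCVC_LPS, 327 and 489 in LPS, 45.1 and 81.6 in DCVC, and 297 and 358 in Control. That sum was lower in both groups given DCVC, and its part in the results was not tested. In such bulk RNA, fewer cells of a type and less RNA per cell cannot be told apart.

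Before the values, the stretches upstream of 4 TRIM genes are shown because their genes rose with LPS and because each holds the core of an interferon-stimulated response element, the motif that interferon-activated transcription factors bind. The motif searched was GAAA, then any 2 bases, then GAAA, on both strands, in windows of 300 bases from 250 before to 50 after each annotated start (RefSeq, GRCh38.p14), for which 51 of the 65 genes and 31 of the 40 tested genes had an entry. It was present in 4.38% of the 27305 genes with such a window. Among the 31 tested TRIM genes it was present in 7, namely TRIM2, TRIM5, TRIM14, TRIM16, TRIM26, TRIM44 and TRIM69. Each line gives the 250 bases before the start in the direction of the gene, with the matching bases, here all read on the opposite strand, in capitals.
TRIM5, chr11:5685075-5685324, minus strand: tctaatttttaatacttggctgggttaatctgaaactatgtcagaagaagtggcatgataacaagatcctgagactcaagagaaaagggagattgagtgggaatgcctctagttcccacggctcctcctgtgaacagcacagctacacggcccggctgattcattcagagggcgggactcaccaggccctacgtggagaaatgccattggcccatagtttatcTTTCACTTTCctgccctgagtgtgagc
TRIM14, chr9:98119223-98119472, minus strand: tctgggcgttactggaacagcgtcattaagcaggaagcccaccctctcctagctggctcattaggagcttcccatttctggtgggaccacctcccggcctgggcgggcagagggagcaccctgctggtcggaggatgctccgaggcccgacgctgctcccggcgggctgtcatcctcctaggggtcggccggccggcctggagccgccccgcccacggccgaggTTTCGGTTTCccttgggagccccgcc
TRIM26, chr6:30213407-30213656, minus strand: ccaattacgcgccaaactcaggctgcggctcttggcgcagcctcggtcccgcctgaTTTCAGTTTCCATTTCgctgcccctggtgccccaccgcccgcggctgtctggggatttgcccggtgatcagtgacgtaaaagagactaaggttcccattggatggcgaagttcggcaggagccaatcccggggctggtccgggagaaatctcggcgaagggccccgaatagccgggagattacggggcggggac
TRIM69, chr15:44736278-44736527, plus strand: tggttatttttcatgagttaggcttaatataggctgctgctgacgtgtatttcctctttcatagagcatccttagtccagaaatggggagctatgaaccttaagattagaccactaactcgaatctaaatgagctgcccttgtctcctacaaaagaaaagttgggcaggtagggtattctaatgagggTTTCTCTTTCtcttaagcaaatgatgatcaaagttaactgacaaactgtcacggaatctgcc

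The first matching base lay at position -27 for TRIM5, -26 for TRIM14 and -62 for TRIM69, counted from the annotated start, and TRIM26 held overlapping matches at -194 and -188. A match describes the letters of the window and is not evidence of binding. Of the 7 genes with the motif, 5 rose with LPS, TRIM2 fell and TRIM16 did not pass the test, as described below. Beside these, 17 of the 40 tested TRIM genes and 37.8% of all tested genes rose. The fifth that rose, TRIM44, is not printed above, and its rise was lost at equal totals. Whether the motif goes with the rise was not tested. TRIM25 had no entry. The NF-kB site, written as GGGAA, any 3 bases and CC, was present in 8.28% of all genes with a window and in 3 of the 31 TRIM genes (TRIM2, TRIM14 and TRIM56), and it overlapped none of the capitals printed above. The core of the antioxidant response element, written as TGAC, any 3 bases and GC, was present in 16.06% of all genes with a window and in 5 TRIM genes (TRIM2, TRIM39, TRIM47, TRIM62 and TRIM72),.

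A second pair of sequences is shown because both genes reacted to DCVC and cannot be fully separated by short reads. TRIM16 and TRIM16L lie on chromosome 17 and share most of their coding sequence, with 14 differences over 1044 aligned coding bases (98.7% identical), and the coding sequence of TRIM16 is longer, at 1692 bases. The lines give 120 bases of coding sequence from GENCODE 29 on GRCh38, with the 5 bases that differ in capitals.
TRIM16, chr17:15628735-15628854, minus strand: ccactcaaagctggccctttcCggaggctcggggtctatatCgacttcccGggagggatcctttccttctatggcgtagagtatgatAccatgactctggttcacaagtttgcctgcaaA
TRIM16L, chr17:18735221-18735340, plus strand: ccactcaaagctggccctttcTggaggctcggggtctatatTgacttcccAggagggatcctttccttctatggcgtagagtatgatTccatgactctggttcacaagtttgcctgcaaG

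Of all distinct stretches of 50 exon bases, 39.4% of those in TRIM16L also occurred in TRIM16 and 28.9% of those in TRIM16 also occurred in TRIM16L. The sources used here do not say how reads with more than 1 hit were handled, so the values of this pair are uncertain as to which gene they belong to.

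LPS moved most of the tested TRIM genes, in both directions. In LPS minus Control, 17 of 40 rose and 16 fell at a Benjamini-Hochberg adjusted p under 0.05 (82.5%), beside 78.4% of all tested genes (37.8% raised and 40.6% lowered), so the share was near the background. Among the genes that rose, 9 did so by at least 2-fold, and among those that fell, 6 did. The values of both groups did not overlap for 24 TRIM genes (beside 56.8% of all tested genes), and the median log2 change was -0.15. At equal totals 9 rose and 26 fell, beside 22.4% raised and 59.5% lowered of all tested genes, and the 16 that fell on the deposited scale all fell there too. TRIM4, TRIM11, TRIM27, TRIM28, TRIM33, TRIM35, TRIM39 and TRIM44 no longer rose, and for TRIM4, TRIM11, TRIM27, TRIM35 and TRIM39 the sign turned.

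DCVC without LPS raised 17 and lowered 10 of the 40 genes (67.5%, beside 59.7% of all tested genes, of which 27.5% raised and 32.2% lowered). Of these changes, 2 of the 17 rises and 6 of the 10 falls reached 2-fold. The groups did not overlap for 18 genes (beside 36.5% of all), and the median log2 change was 0.18. At equal totals 27 rose and 8 fell (beside 46.1% raised and 20.1% lowered of all), with the same 17 among those that rose, and TRIM3 and TRIM8 no longer fell. In LPS-treated cells, DCVC (DCVC_LPS minus LPS) raised 14 and lowered 17 (77.5%, beside 72.7% of all, 33.3% raised and 39.4% lowered), and 7 of each reached 2-fold. No overlap was seen for 25 genes (beside 51.7% of all), and the median was -0.08. At equal totals 21 rose and 10 fell (beside 54.5% raised and 21.9% lowered of all). The same 14 were among those that rose, and TRIM8, TRIM9, TRIM28, TRIM32, TRIM36, TRIM56 and TRIM58 no longer fell.

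LPS after DCVC (DCVC_LPS minus DCVC) raised 11 and lowered 13 genes (60%, beside 62.1% of all, 29.9% raised and 32.2% lowered), with a median of 0.02, and 12 genes did not overlap (beside 45.1% of all). At equal totals 4 rose and 22 fell (beside 16.3% raised and 52.7% lowered of all), and TRIM36, TRIM47, TRIM56 and TRIM69 were the 4. The interaction, which is the LPS change after DCVC minus the LPS change without it, was above 0 for 9 genes and below 0 for 12 (52.5%, beside 45.7% of all, 22.0% above and 23.7% below 0). At equal totals these numbers were 14 and 11 (beside 33.1% above and 16.1% below 0 of all), and only TRIM28 lost its call. The interaction also compares the DCVC change with LPS against that without it, as both are the same difference of differences.

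**Figure D1:**
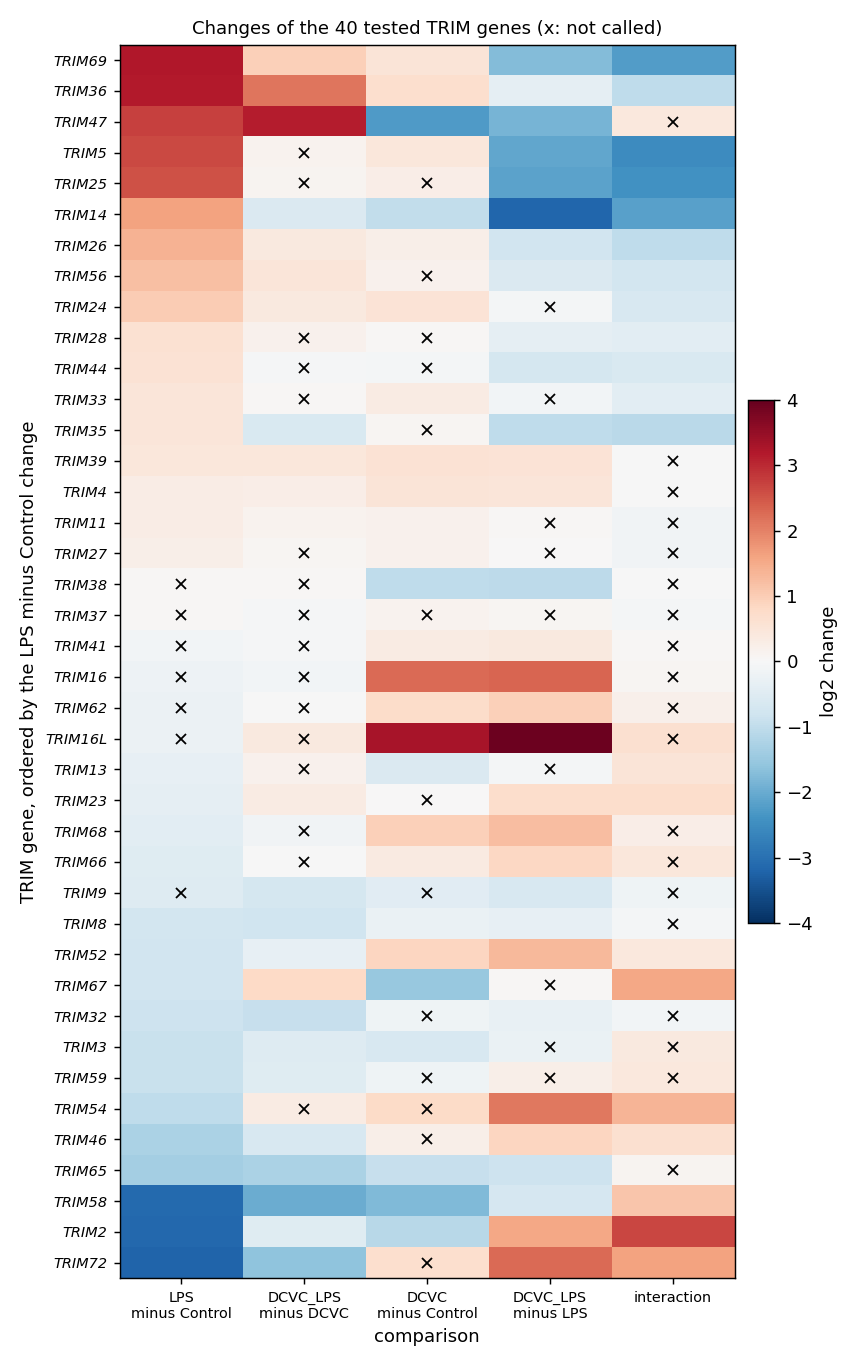
Heat map of the log2 change (colour) of the 40 tested TRIM genes (vertical axis, ordered by LPS minus Control) in the 5 comparisons (horizontal axis). A cross marks a gene that was not called. The genes at the top (TRIM69, TRIM36, TRIM47, TRIM5, TRIM25 and TRIM14) rose most with LPS, and all of these but TRIM47 have an interaction below 0 that was called.

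TRIM69, TRIM5, TRIM25 and TRIM14, members with a role in antiviral defence, were the members that rose strongly with LPS and whose LPS change was most reduced after DCVC. TRIM69 (ENSG00000185880, chr15:44728988-44767829 in GENCODE 29 on GRCh38) encodes a ligase that restricts vesicular stomatitis virus. Its normalized counts had a lowest, median and highest value of 614, 644 and 1678 in DCVC_LPS, 2185, 2511 and 2861 in LPS, 296, 392 and 437 in DCVC, and 223, 266 and 356 in Control. Every LPS library lay above every library of the other groups. TRIM69 rose 1.95-fold in DCVC_LPS over DCVC (log2 change 0.97, SE 0.18, limma adjusted p = 4.65e-05) and 9.26-fold in LPS over Control (log2 change 3.21, SE 0.18, limma adjusted p = 2.16e-14). The interaction was -2.24 (SE 0.25, limma adjusted p = 1.47e-07), so the LPS rise was smaller after DCVC. In LPS-treated cells it was lower with DCVC (log2 change -1.73, limma adjusted p = 4.96e-09), while without LPS it was slightly higher (0.51, adjusted p = 0.0164, with 1 DCVC library within the Control range).

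TRIM5 (ENSG00000132256, chr11:5663557-5938619), a restriction factor that binds retroviral capsids, followed the same course. It had 147, 178 and 339 normalized counts (lowest, median, highest) in DCVC_LPS, 687, 794 and 1015 in LPS, 143, 182 and 220 in DCVC, and 109, 130 and 151 in Control. The LPS libraries stood above all others, whereas DCVC_LPS and DCVC overlapped. The LPS change was 0.13 after DCVC (SE 0.16, limma adjusted p = 0.491) and 2.64 without it (SE 0.16, limma adjusted p = 7.68e-14), and the interaction was -2.51 (limma adjusted p = 3.95e-09). DCVC lowered it 4.20-fold in LPS-treated cells (log2 change -2.07, limma adjusted p = 2.21e-11) and raised it slightly without LPS (0.44, adjusted p = 0.0178). An overlapping gene on the same strand shares 8.0% of its exon bases.

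TRIM25 (ENSG00000121060, chr17:56836387-56914080) encodes the ligase that attaches ubiquitin chains to the RNA sensor RIG-I. Its normalized counts were 968, 1054 and 2418 in DCVC_LPS, 4097, 5268 and 6623 in LPS, 996, 1093 and 1218 in DCVC, and 734, 873 and 1168 in Control. The LPS group again stood apart, and within DCVC_LPS library F lay far above the other 5. After DCVC the LPS change was 0.12 (SE 0.17, limma adjusted p = 0.554), and without library F it was -0.09. TRIM25 rose 5.78-fold in LPS over Control (log2 change 2.53, SE 0.17, limma adjusted p = 6.80e-13). The interaction was -2.41 (limma adjusted p = 1.89e-08), and -2.62 without library F. DCVC_LPS was 4.39-fold lower than LPS (log2 change -2.14, limma adjusted p = 4.31e-11). DCVC minus Control was 0.28 and was not called (limma adjusted p = 0.158), but it passed without library F of DCVC_LPS (limma adjusted p = 0.0286).

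TRIM14 (ENSG00000106785, chr9:98069275-98119212) lacks a RING finger and serves as an adaptor at the mitochondrial protein MAVS. It had 325, 421 and 1050 normalized counts in DCVC_LPS, 2995, 4386 and 4846 in LPS, 528, 734 and 864 in DCVC, and 1080, 1427 and 1712 in Control. It differed from the 3 genes above in that DCVC alone lowered it, 2.00-fold (SE 0.22 on the log2 scale, limma adjusted p = 0.000324), and that all 6 DCVC libraries lay under all Control libraries. After DCVC it was lower with LPS than without (-0.57, limma adjusted p = 0.0245), a call that was lost in 9 of the fits leaving out a letter or a library and with edgeR and DESeq2. LPS raised it 3.04-fold without DCVC (log2 change 1.60, limma adjusted p = 2.73e-07). In LPS-treated cells DCVC lowered it 9.02-fold (log2 change -3.17, SE 0.22, limma adjusted p = 3.33e-12), the largest fall among the 40 genes in that comparison. The interaction was -2.17 (limma adjusted p = 3.38e-06).

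The library F of DCVC_LPS was the highest of its group for TRIM5, TRIM14, TRIM25 and TRIM69. Without it DCVC_LPS minus LPS was -2.23 for TRIM5, -3.41 for TRIM14, -2.34 for TRIM25 and -1.97 for TRIM69, each further from 0 than with it. The interaction without it was -2.67 for TRIM5, -2.41 for TRIM14 and -2.48 for TRIM69. Over the 40 genes, leaving this library out gave 14 raised and 14 lowered in DCVC_LPS minus LPS, 10 raised and 12 lowered in DCVC_LPS minus DCVC, and 7 above and 12 below 0 in the interaction. These were 70%, 55% and 47.5% of the 40, beside 72.0%, 60.2% and 45.8% of all tested genes.

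Other members with a role in sensing moved by less. TRIM56, a ligase linked to STING and TRIF signalling, had 3011, 3558 and 4670 normalized counts in DCVC_LPS, 4061, 5594 and 6095 in LPS, 2429, 2585 and 2720 in DCVC, and 2106, 2240 and 2611 in Control. It rose with LPS both after DCVC (log2 change 0.49, limma adjusted p = 4.77e-05) and without it (1.22, limma adjusted p = 7.55e-12), with an interaction of -0.72 (adjusted p = 6.91e-05), and its fall in DCVC_LPS against LPS (-0.57) was not called at equal totals. TRIM35, a ligase linked to turnover of IRF7, fell with LPS by 0.62 after DCVC (limma adjusted p = 1.11e-06) and rose with LPS by 0.47 without it (limma adjusted p = 3.02e-05). Its interaction was -1.09 (limma adjusted p = 1.62e-07), and at equal totals the fall after DCVC was kept (-0.92) while the rise without it was lost (-0.01). TRIM26, named here because of its upstream sequence and after its values were seen, rose with LPS by 0.38 after DCVC and by 1.39 without it, with an interaction of -1.02 (limma adjusted p = 3.89e-07). The rise after DCVC was not called at equal totals (0.08). TRIM44, named for the same reason, had an LPS change of -0.04 after DCVC (limma adjusted p = 0.578) and rose with LPS by 0.57 without it, a call lost at equal totals.

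TRIM38 (ENSG00000112343, chr6:25962802-25991226), a ligase that limits TLR and TNF signalling, showed DCVC changes of the same size in both settings. Its normalized counts were 338, 372 and 482 in DCVC_LPS, 707, 812 and 896 in LPS, 333, 371 and 436 in DCVC, and 610, 784 and 944 in Control. The 12 libraries given DCVC all lay under the 12 libraries without it. The DCVC change was -1.03 both with LPS (limma adjusted p = 1.11e-09) and without it (limma adjusted p = 3.27e-09), and the interaction was 0.00 (SE 0.14, adjusted p = 0.988). LPS gave changes of 0.05 after DCVC and 0.06 without it, neither of which passed the test, though both were called as falls at equal totals (-0.24 after DCVC and -0.42 without it). TRIM65 (ENSG00000141569, chr17:75880335-75897003), the ligase of the RNA sensor MDA5, fell with each treatment. It had 74.4, 96.2 and 112 normalized counts in DCVC_LPS, 140, 153 and 231 in LPS, 209, 217 and 273 in DCVC, and 358, 407 and 557 in Control. The 4 groups did not overlap except that the upper LPS library reached into the DCVC range. The LPS change was -1.27 after DCVC and -1.37 without it, the DCVC change was -0.82 with LPS and -0.92 without it, and all 4 were called (largest limma adjusted p = 5.03e-06).

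**Figure D2:**
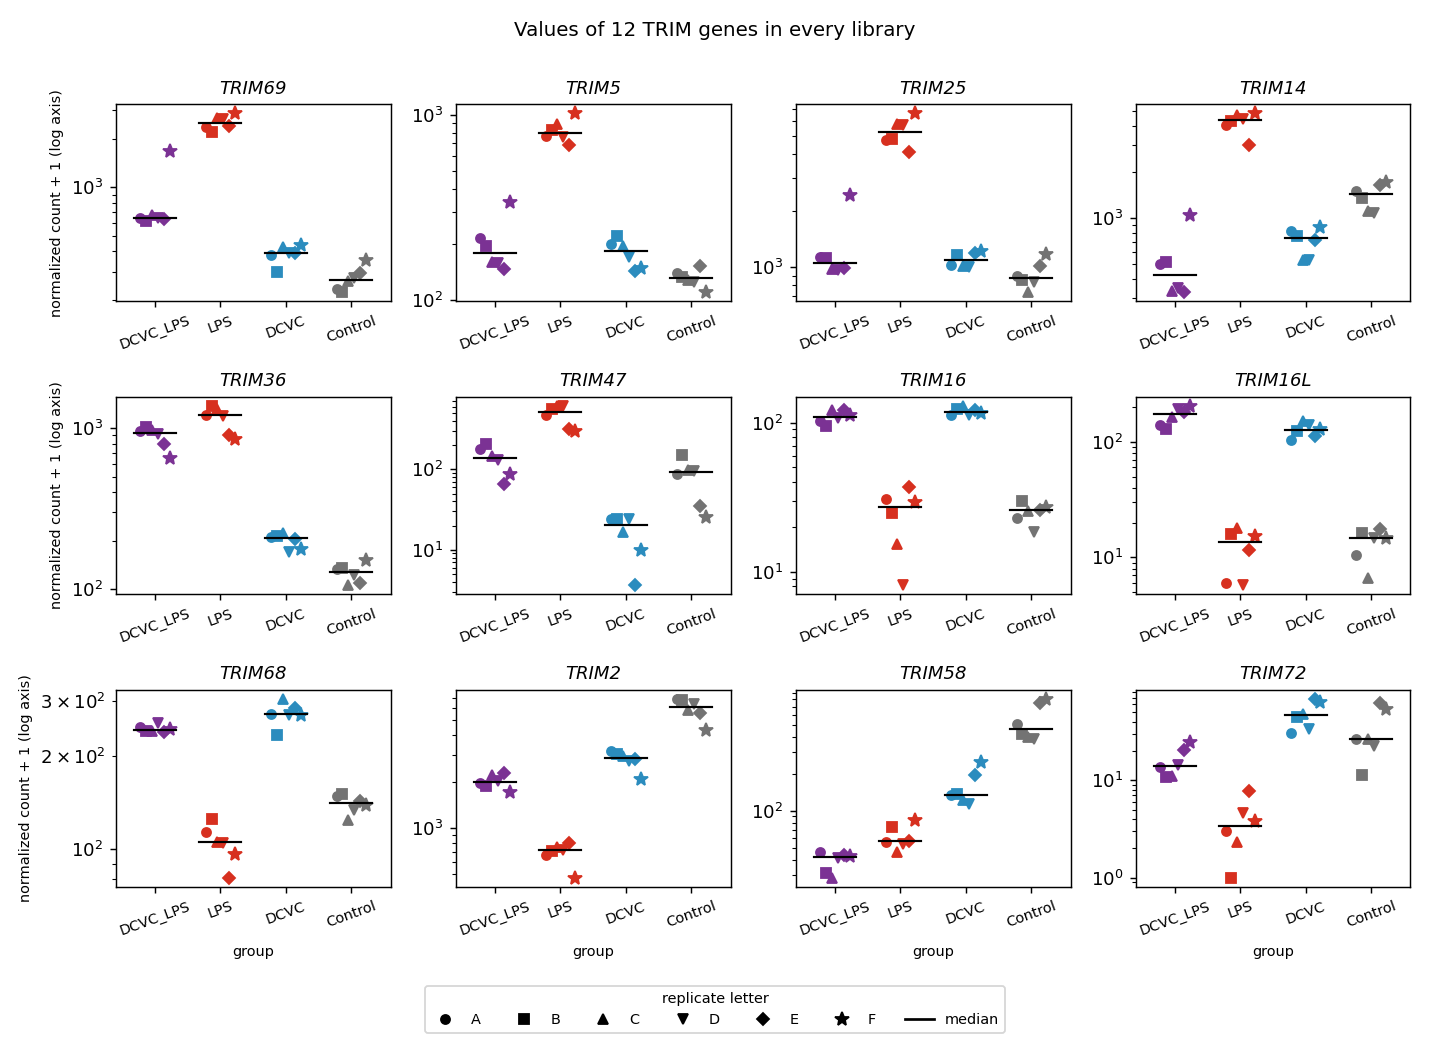
Normalized counts plus 1 (vertical log axis, scaled separately for each gene) of 12 TRIM genes in the 24 libraries by group (horizontal axis), with a marker for each replicate letter and a bar at each group's median. TRIM69, TRIM5, TRIM25 and TRIM14 are highest in LPS, with library F the highest of DCVC_LPS. TRIM16, TRIM16L and TRIM68 are high in both groups given DCVC.

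TRIM16 and TRIM16L rose with DCVC, whether or not LPS was given. TRIM16 (ENSG00000221926, chr17:15627960-15684311) is linked to galectin-guided autophagy and to the p62, KEAP1 and NRF2 proteins of the oxidant response. Its normalized counts were 93.5, 109 and 121 in DCVC_LPS, 7.16, 26.1 and 36.0 in LPS, 111, 117 and 128 in DCVC, and 17.5, 24.8 and 29.0 in Control. The libraries given DCVC lay far above all the others. The rise was 5.06-fold in DCVC_LPS over LPS (log2 change 2.34, SE 0.24, limma adjusted p = 5.03e-09) and 4.79-fold in DCVC over Control (log2 change 2.26, SE 0.24, limma adjusted p = 2.33e-08). The interaction was 0.08 (SE 0.34, adjusted p = 0.877) and took the other sign with edgeR and DESeq2.

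TRIM16L (ENSG00000108448, chr17:18697998-18736118), which GENCODE 29 lists as protein coding and RefSeq as a transcribed pseudogene, had the largest DCVC rises among the 40 genes. It had 129, 172 and 203 normalized counts in DCVC_LPS, 4.77, 12.5 and 16.8 in LPS, 102, 126 and 152 in DCVC, and 5.68, 13.6 and 16.7 in Control. It rose 15.2-fold in DCVC_LPS over LPS (log2 change 3.93, SE 0.26, limma adjusted p = 2.94e-12) and 9.87-fold in DCVC over Control (log2 change 3.30, SE 0.26, limma adjusted p = 2.05e-10). These rest on 1113 reads in DCVC_LPS, 50 in LPS, 848 in DCVC and 82 in Control. LPS changed neither gene past the threshold, with log2 changes for TRIM16L of 0.40 after DCVC (limma adjusted p = 0.19) and -0.22 without it (limma adjusted p = 0.451). At equal totals the LPS change without DCVC was called as a fall for both, at -0.65 each.

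Smaller DCVC rises in both settings came from 7 further genes, TRIM4, TRIM39, TRIM41, TRIM52, TRIM62, TRIM66 and TRIM68, which complete the count. TRIM68, a ligase first described as a coactivator of the androgen receptor, had 238, 242 and 254 normalized counts in DCVC_LPS, 80.1, 104 and 124 in LPS, 232, 271 and 305 in DCVC, and 123, 141 and 149 in Control. No library given DCVC overlapped one without it, and the rise was 2.36-fold with LPS (log2 change 1.24, limma adjusted p = 9.51e-12) and 1.95-fold without it (log2 change 0.97, limma adjusted p = 2.28e-09). TRIM52, a small and fast-evolving RING protein, rose by 1.29 with LPS (limma adjusted p = 3.95e-10) and by 0.86 without it (limma adjusted p = 7.49e-07), and 28.5% of its exon bases are shared with a gene on the opposite strand. TRIM62, a ligase of the fungal-sensing adaptor CARD9, rose by 0.94 with LPS (limma adjusted p = 4.47e-08) and by 0.73 without it (limma adjusted p = 4.34e-06). All 9 genes raised by DCVC in both settings stayed raised at equal totals. The rise of TRIM66 without LPS was lost with letters A and B alone. With letters E and F alone, TRIM39 lost its rise in both settings.

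TRIM36 and TRIM47 rose with LPS before and after DCVC. TRIM36 (ENSG00000152503, chr5:115124762-115180546) encodes a COS-box ligase that binds microtubules. Its normalized counts were 649, 937 and 1021 in DCVC_LPS, 849, 1197 and 1369 in LPS, 169, 207 and 223 in DCVC, and 105, 126 and 150 in Control. Both groups given LPS stood above both groups without it. The rise was 4.40-fold after DCVC (log2 change 2.14, SE 0.13, limma adjusted p = 2.62e-13) and 8.95-fold without it (log2 change 3.16, SE 0.13, limma adjusted p = 3.65e-17), and the interaction was -1.02 (limma adjusted p = 5.23e-05). In LPS-treated cells DCVC lowered TRIM36 (-0.35, limma adjusted p = 0.0149), which turned to 0.08 at equal totals and was not called without library F of DCVC_LPS. Without LPS, DCVC raised it (0.67, limma adjusted p = 6.99e-05).

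TRIM47 (ENSG00000132481, chr17:75874161-75878575), a ligase reported to act on the deubiquitinase CYLD, rose with LPS after DCVC and without it, and fell with DCVC with and without LPS. It had 65.4, 138 and 204 normalized counts in DCVC_LPS, 295, 519 and 609 in LPS, 2.67, 19.2 and 23.4 in DCVC, and 24.4, 90.7 and 149 in Control. The lowest Control value lay just above the highest DCVC value, and letters E and F were the low ones in each group. The LPS rise was 8.87-fold after DCVC (log2 change 3.15, SE 0.44, limma adjusted p = 1.07e-06) and 6.63-fold without it (log2 change 2.73, SE 0.44, limma adjusted p = 4.40e-06). DCVC lowered it 3.63-fold with LPS (log2 change -1.86, limma adjusted p = 0.000569) and 4.85-fold without it (log2 change -2.28, limma adjusted p = 9.98e-05). The interaction of 0.42 (SE 0.62, limma adjusted p = 0.62) was too imprecise to tell whether these changes differ. On the opposite strand another gene covers 51.5% of the exon bases of TRIM47, and no source used here gives the strand setting of the counting.

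The ligases with NHL repeats fell with LPS. TRIM2 (ENSG00000109654, chr4:153152342-153339320), known from mouse neurons as a ligase of a neurofilament chain, had 1705, 1974 and 2288 normalized counts in DCVC_LPS, 473, 712 and 789 in LPS, 2085, 2860 and 3152 in DCVC, and 4359, 6138 and 6922 in Control. The LPS libraries were the lowest and the Control libraries the highest, without overlap. TRIM2 fell 1.39-fold in DCVC_LPS against DCVC (log2 change -0.47, SE 0.12, limma adjusted p = 0.00164) and 8.75-fold in LPS against Control (log2 change -3.13, SE 0.12, limma adjusted p = 2.08e-17). The interaction of 2.66 (SE 0.17, limma adjusted p = 3.08e-11) was the largest above 0 among the 40 genes. DCVC raised it with LPS and lowered it without, at 1.56 with LPS (limma adjusted p = 3.54e-11) and -1.10 without it (limma adjusted p = 4.26e-08). Both directions were kept at equal totals, at 1.99 and -0.85.

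TRIM32, the ligase mutated in a limb-girdle muscular dystrophy, had 79.7, 90.8 and 128 normalized counts in DCVC_LPS, 96.8, 114 and 146 in LPS, 175, 181 and 201.2 in DCVC, and 182, 202 and 251 in Control. Both groups given LPS lay under both groups without it. Its LPS change was -0.93 after DCVC (limma adjusted p = 1.48e-07) and -0.81 without it (limma adjusted p = 5.85e-07). TRIM3, named to complete the class after its values were seen, had LPS changes of -0.51 after DCVC and -0.89 without it, both called. The fourth NHL gene, TRIM71, known as a repressor of differentiation in stem cells, was not tested and had 63 reads in DCVC_LPS, 8 in LPS, 23 in DCVC and 36 in Control over the 6 libraries of each group.

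TRIM58 (ENSG00000162722, chr1:247857199-247878205), known in mouse erythroblasts as a ligase acting on the motor protein dynein, fell with LPS and with DCVC. It had 27.6, 40.9 and 44.7 normalized counts in DCVC_LPS, 45.3, 55.3 and 82.6 in LPS, 112, 134 and 249 in DCVC, and 381, 459 and 810 in Control. The 4 groups did not overlap. LPS lowered it 3.98-fold after DCVC (log2 change -1.99, SE 0.21, limma adjusted p = 1.48e-08) and 8.58-fold without it (log2 change -3.10, SE 0.21, limma adjusted p = 1.46e-12). DCVC lowered it by 0.66 on the log2 scale with LPS, a call lost at equal totals and without letter B, and by 1.77 without LPS (limma adjusted p = 1.70e-07). The interaction was 1.11 (limma adjusted p = 0.00417).

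TRIM72 (ENSG00000177238, chr16:31214021-31231537), the membrane-repair protein of striated muscle, was near the lower limit of detection under LPS. Its reads numbered 98 in DCVC_LPS, 13 in LPS, 318 in DCVC and 208 in Control, and 1 LPS library had none. It had 9.68, 13.1 and 23.9 normalized counts in DCVC_LPS, 0, 2.42 and 6.67 in LPS, 29.8, 45.5 and 67.6 in DCVC, and 10.2, 25.4 and 61.4 in Control. LPS lowered it both after DCVC (log2 change -1.61, SE 0.41, limma adjusted p = 0.00149) and without it (-3.21, SE 0.41, limma adjusted p = 1.27e-07), and the interaction of 1.60 was called (adjusted p = 0.0277) but lost in 7 of the fits leaving out a letter or a library. DCVC raised it in LPS-treated cells (2.27, limma adjusted p = 2.66e-05). Its change without LPS was 0.68 (limma adjusted p = 0.161) and passed when the letter was added as a block (adjusted p = 0.0319).

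Among the COS-box genes other than TRIM36, low counts limited what could be said. TRIM54, a microtubule-linked protein of the muscle sarcomere, had 29.0, 40.6 and 68.2 normalized counts in DCVC_LPS, 2.85, 11.2 and 14.2 in LPS, 11.9, 42.3 and 48.0 in DCVC, and 7.24, 20.6 and 33.6 in Control. DCVC raised it 4.34-fold in LPS-treated cells (log2 change 2.12, SE 0.39, limma adjusted p = 3.05e-05), without overlap, while its LPS fall of 1.03 without DCVC and its interaction of 1.36 were lost in 4 and 16 of the fits leaving out a letter or a library. TRIM46, which bundles microtubules at the start of the axon in neurons, fell with LPS by 0.63 after DCVC (limma adjusted p = 0.00375) and by 1.25 without it (limma adjusted p = 6.91e-07). DCVC raised it by 0.87 with LPS (limma adjusted p = 0.000121), and its interaction of 0.63 was lost in 19 of those fits. TRIM67, a brain-enriched relative of TRIM9, had 9.68, 12.6 and 21.3 normalized counts in DCVC_LPS, 5.91, 15.8 and 27.4 in LPS, 4.44, 8.11 and 11.7 in DCVC, and 12.7, 25.2 and 35.0 in Control. The DCVC and Control libraries did not overlap (log2 change -1.52, SE 0.31, limma adjusted p = 0.000175), with 54 reads in DCVC and 164 in Control, and with LPS the DCVC change was 0.04 (interaction 1.56, limma adjusted p = 0.00519). Its LPS changes of 0.79 after DCVC and -0.76 without it were lost in 8 and 7 of those fits. TRIM54, TRIM67 and TRIM72 were the tested members with a group mean under 10.

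The nuclear corepressors with a PHD finger and a bromodomain moved by less. TRIM28 (ENSG00000130726, chr19:58544091-58550722), the corepressor that KRAB zinc finger proteins recruit to silence transposons, had 4612, 5422 and 5520 normalized counts in DCVC_LPS, 5887, 6309 and 8388 in LPS, 4003, 4585 and 5222 in DCVC, and 3782, 4032 and 5829 in Control. After DCVC the LPS change was 0.18 (limma adjusted p = 0.137), which passed with the letter as a block (adjusted p = 0.00902). LPS raised it 1.52-fold without DCVC (log2 change 0.60, SE 0.10, limma adjusted p = 1.08e-05), and at equal totals that change was 0.12 and not called. Its fall in DCVC_LPS against LPS (-0.37, limma adjusted p = 0.00283) turned to 0.06 at equal totals. TRIM24, a coregulator of nuclear receptors, TRIM33, a ligase of SMAD4, and TRIM66 are named to complete the class, after their values were seen. TRIM24 rose with LPS by 0.39 after DCVC and by 1.03 without it, with an interaction of -0.64 (limma adjusted p = 8.03e-06), and TRIM33 had an interaction of -0.43 (limma adjusted p = 0.00125). TRIM66, which binds the heterochromatin protein HP1, rose with DCVC by 0.83 in LPS-treated cells (limma adjusted p = 7.48e-06) and by 0.37 without LPS (limma adjusted p = 0.0223). With letters A and B alone the change without LPS turned sign and was not called as a rise. Over those letters TRIM66 averaged 192.8 normalized counts in DCVC and 200 in Control. The TRIM66 interaction (0.46, adjusted p = 0.0551) passed with the block (adjusted p = 0.0314).

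Of the remaining members in the rule for named genes, TRIM23, a ligase with an ARF GTPase domain, had 507, 556 and 622 normalized counts in DCVC_LPS, 303, 338 and 375 in LPS, 397, 429 and 509 in DCVC, and 354, 452 and 495 in Control. DCVC raised it by 0.72 with LPS (limma adjusted p = 9.71e-08), its change without LPS was 0.02 (adjusted p = 0.831), and the interaction was 0.69 (limma adjusted p = 7.77e-05). TRIM8, a ligase of the TNF and IL-1 kinase pathway, fell with LPS by 0.79 after DCVC (limma adjusted p = 1.10e-07) and by 0.73 without it (limma adjusted p = 2.15e-07). TRIM9, a neuronal ligase, fell with LPS after DCVC by 0.70 (limma adjusted p = 0.0227), a call lost in 5 of the fits leaving out a letter or a library. TRIM39, whose exons overlap a readthrough gene over 29.5% of their length, rose with LPS by 0.44 after DCVC (limma adjusted p = 0.00289), though at equal totals the change was 0.15 and not called. TRIM37 was not called in any of the 5 comparisons.

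Set against each other over the 40 genes, the LPS changes with and without DCVC were as follows. Of the 17 genes that rose with LPS without DCVC, 9 also rose after it (TRIM4, TRIM11, TRIM24, TRIM26, TRIM36, TRIM39, TRIM47, TRIM56 and TRIM69), 6 were not called (TRIM5, TRIM25, TRIM27, TRIM28, TRIM33 and TRIM44) and 2 fell (TRIM14 and TRIM35). Of the 16 that fell, 10 also fell after DCVC, 4 were not called, and TRIM23 and TRIM67 rose. At equal totals the rises after DCVC were kept for TRIM36, TRIM47, TRIM56 and TRIM69. Those of TRIM4, TRIM11, TRIM23, TRIM24, TRIM26, TRIM39 and TRIM67 were lost, and the signs of TRIM4 and TRIM11 turned. The matching shares over all tested genes were not counted. Genes called in 1 setting and not in the other are shown to differ only where the interaction was called, which was not so for TRIM9, TRIM27, TRIM66 and TRIM68. TRIM9 was not called without DCVC and fell with LPS after it.

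**Figure D3:**
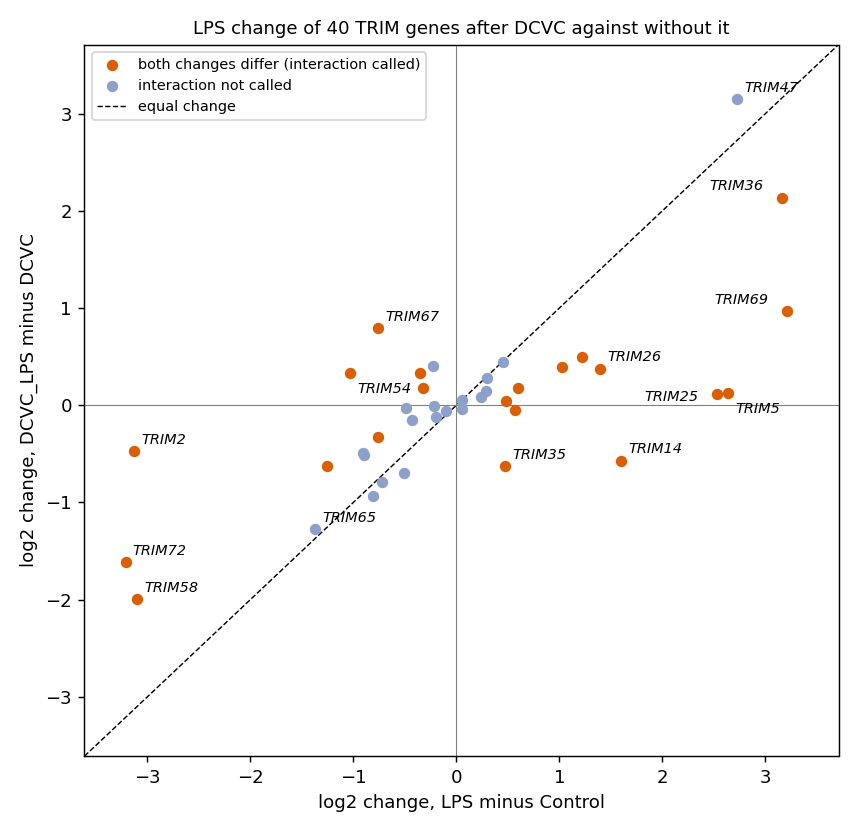
LPS change after DCVC (DCVC_LPS minus DCVC, vertical axis, log2) against the LPS change without DCVC (LPS minus Control, horizontal axis, log2) for the 40 tested TRIM genes, with orange points where the interaction was called and a dashed line of equal change. TRIM5, TRIM25 and TRIM14 lie far under the line and near or under 0 on the vertical axis, and TRIM47 and TRIM65 lie close to the line.

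Of the 17 genes raised by DCVC without LPS, 9 were also raised with LPS, 4 were not called and 4 were lowered (TRIM5, TRIM26, TRIM36 and TRIM69). Of the 10 lowered, 6 were also lowered with LPS (TRIM8, TRIM14, TRIM38, TRIM47, TRIM58 and TRIM65), 3 were not called and TRIM2 was raised. A further 7 were called lowered with LPS and not called without it (TRIM9, TRIM25, TRIM28, TRIM32, TRIM35, TRIM44 and TRIM56), and the interaction was called for all of these but TRIM9 and TRIM32. Another 4 were raised with LPS and not called without it (TRIM23, TRIM46, TRIM54 and TRIM72), and the interaction was called above 0 for each, a call lost on leaving out a letter or a library in 19 fits for TRIM46, 16 for TRIM54 and 7 for TRIM72. At equal totals TRIM8, TRIM9, TRIM28, TRIM32, TRIM36, TRIM56 and TRIM58 no longer fell with DCVC in LPS-treated cells. Without LPS, TRIM3 and TRIM8 no longer fell there. The matching shares over all tested genes were not counted.

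**Figure D4:**
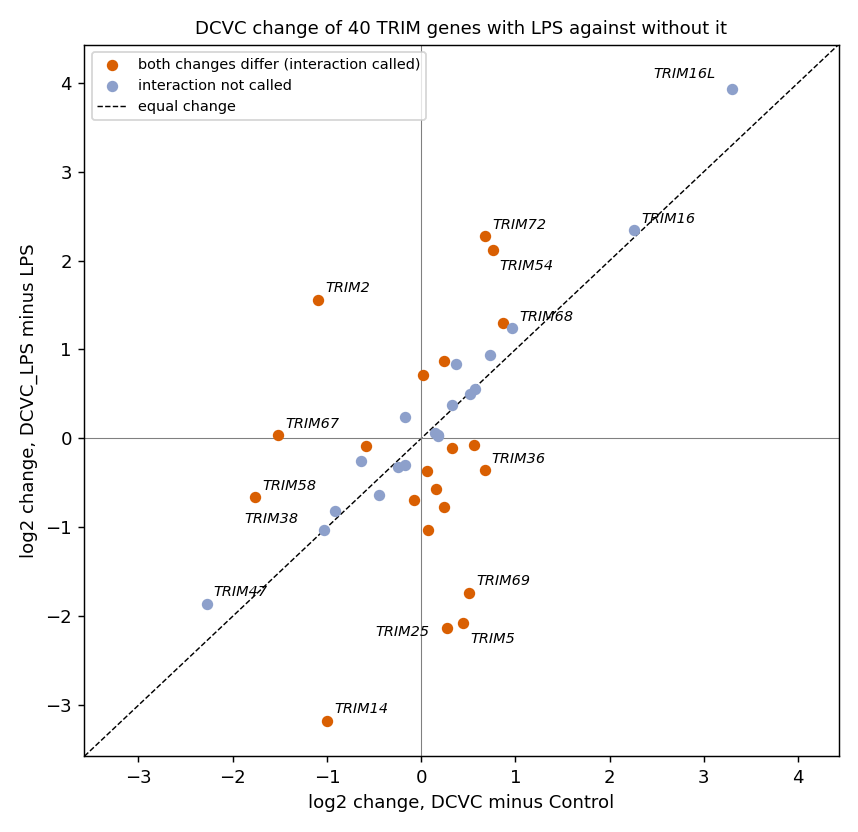
DCVC change with LPS (DCVC_LPS minus LPS, vertical axis, log2) against the DCVC change without LPS (DCVC minus Control, horizontal axis, log2) for the 40 tested TRIM genes, with orange points where the interaction was called and a dashed line of equal change. TRIM16L, TRIM16 and TRIM68 lie in the upper right near the line, TRIM38 and TRIM47 in the lower left near it, TRIM14, TRIM5, TRIM25 and TRIM69 far under it, and TRIM2 far above it.

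The domain classes were counted as well. Of the 17 tested PRY-SPRY genes with a RING finger, 10 rose and 4 fell with LPS without DCVC, against 5 and 10 at equal totals (over all tested genes, 37.8% rose and 40.6% fell on the deposited scale, and 22.4% rose and 59.5% fell at equal totals). In LPS-treated cells DCVC raised 6 and lowered 9 of them (beside 33.3% and 39.4% of all). At equal totals it raised 8 and lowered 8 (beside 54.5% and 21.9% of all). All 3 tested NHL genes fell with LPS both after DCVC and without it (beside 32.2% and 40.6% of all tested genes), and also at equal totals, where 52.7% of all fell after DCVC and 59.5% without it. Of the 4 PHD-bromodomain genes, 3 rose and 1 fell with LPS without DCVC, against 1 and 1 at equal totals.

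The 25 members that were not tested had few or no reads. No read was found for TRIM15, TRIM42, TRIM48, TRIM49, TRIM51, TRIM60, TRIM61, TRIM64 and TRIM77. TRIM31, a ligase of the inflammasome protein NLRP3, had 10 reads in DCVC_LPS, all of them in library F. It had 22 reads over the LPS libraries, between 1 and 6 in each, and none in DCVC and Control. TRIM55, a muscle COS-box protein, had 17 reads in DCVC_LPS, 1 in LPS, 32 in DCVC and 3 in Control. TRIM45, a filamin-domain member, had 50 in DCVC_LPS, 29 in LPS, 96 in DCVC and 74 in Control. In a fit with no filter on low values, 16 of the 25 were fitted among 25377 genes. This fit called 48.5% of all its genes in LPS minus Control and 37.2% in DCVC minus Control. It called 46.2% of them in DCVC_LPS minus LPS and 36.15% in DCVC_LPS minus DCVC. In LPS minus Control it called TRIM31 raised and TRIM50, TRIM71 and TRIM74 lowered, and in DCVC minus Control TRIM50 and TRIM55 raised. In DCVC_LPS minus LPS it called TRIM50, TRIM55 and TRIM71 raised and TRIM31 lowered, and in DCVC_LPS minus DCVC TRIM45 lowered. These calls rest on at most 23 reads in a library, and the 6 genes are not among the 40 counted above. TRIM73 and TRIM74 are partly identical copies, with 91.7% of the 50-base stretches of TRIM74 also found in TRIM73, and their reads are uncertain as to gene.

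Genes that work with the TRIM proteins were counted in lists, with no set test. Of all tested genes, 37.8% rose and 40.6% fell in LPS minus Control (22.4% and 59.5% at equal totals). In DCVC minus Control 27.5% rose and 32.2% fell (46.1% and 20.1% at equal totals). In DCVC_LPS minus LPS 33.3% rose and 39.4% fell (54.5% and 21.9% at equal totals). Of 4 tested family genes under other names, 2 rose with LPS without DCVC, and in DCVC_LPS minus LPS 1 rose and 3 fell. PML, which forms nuclear bodies, averaged 2713 ± 1187 normalized counts in DCVC_LPS, 8464 ± 1190 in LPS, 1067 ± 119 in DCVC and 1199 ± 196 in Control (SD, n = 6 each), and rose with LPS by 1.26 after DCVC (limma adjusted p = 5.91e-07) and by 2.82 without it (limma adjusted p = 1.07e-13). MEFV, which encodes pyrin, averaged 38.1 ± 11.5 in DCVC_LPS, 331 ± 93.9 in LPS, 148 ± 42.4 in DCVC and 336 ± 129 in Control, and was lower with DCVC in LPS-treated cells (log2 change -3.09, limma adjusted p = 3.03e-11). Of 20 interferon-stimulated genes, 20 rose with LPS without DCVC (median 4.45), and in DCVC_LPS minus LPS none rose and 19 fell (median -2.92). Of 18 NRF2 target genes, DCVC raised 18 in LPS-treated cells (median 2.00) and 17 without LPS (median 1.75), with none lowered in either setting. For the interferon-stimulated and NRF2 lists these counts were the same at equal totals, where 1 of the 4 family genes under other names rose and 1 fell with LPS without DCVC.

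A list of 20 genes held enzymes of ubiquitin and ISG15 transfer, together with ISG15 itself, HERC5 and USP18. Of these 20, 16 rose and 2 fell with LPS without DCVC, against 9 and 6 at equal totals. In DCVC_LPS minus LPS 1 rose and 14 fell, against 7 and 7 at equal totals. The ISG15 ligase HERC5 averaged 136 ± 104 normalized counts in DCVC_LPS and 3603 ± 869 in LPS (log2 change -4.90, limma adjusted p = 9.31e-14), and the ISG15-conjugating enzyme UBE2L6 averaged 1019 ± 425 in DCVC_LPS and 3871 ± 687 in LPS (-1.99, limma adjusted p = 7.40e-11). Of 18 genes of the RNA and DNA sensing relay, 12 rose and 5 fell with LPS without DCVC (10 and 6 at equal totals), and 4 rose and 11 fell in DCVC_LPS minus LPS (8 and 8 at equal totals). The DNA sensor CGAS averaged 94.6 ± 41.5 in DCVC_LPS and 1172 ± 260 in LPS (-3.67, limma adjusted p = 1.17e-13), and the RNA sensor IFIH1, known as MDA5, averaged 1940 ± 889 in DCVC_LPS and 8766 ± 1517 in LPS (-2.25, limma adjusted p = 2.23e-11). Of 12 partners of the TRIM28 corepressor, 5 rose and 3 fell with LPS without DCVC, against 1 and 9 at equal totals. Of 15 autophagy genes linked to TRIM proteins, 11 rose and 3 fell with LPS without DCVC, against 6 and 8 at equal totals. With LPS, DCVC raised 3 and lowered 5 of the 15, against 11 and 2 at equal totals. Without LPS, DCVC raised 5 and lowered 7 of these genes, against 8 and 4 at equal totals. Among these the receptor SQSTM1, known as p62, averaged 73370 ± 7222 in DCVC_LPS, 25440 ± 5108 in LPS, 17460 ± 1499 in DCVC and 10050 ± 2150 in Control, and rose with DCVC by 1.55 with LPS (limma adjusted p = 1.20e-10) and by 0.82 without it (limma adjusted p = 7.44e-06).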

How the data were processed

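Gene signal values were used as deposited: read counts that the authors had divided by 1 factor for each library, here called normalized counts. Per the submitters' processing notes, the tools were DESeq2 1.24.0, R 3.6.0, featureCounts 1.6.1, STAR, MultiQC 0.9 and FastQC 0.11.5, with hg38 as the build. No source used here gives the annotation or the strand setting. Within each library 100% of values above 0 were whole reads within a tolerance of 0.1, so edgeR 4.0.16 and DESeq2 1.42.0 could be run on recovered reads as alternatives. Entries without a gene name (33.56% of entries, 0.99% of values) were left out, and 51 symbols on more than 1 entry were summed.

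Values were tested as log2(value + 1), which understates changes of low genes. The test was limma 3.58.1 (R 4.3.3) with a trended empirical Bayes variance, over 24 libraries and 13900 genes, with Benjamini-Hochberg adjustment at 0.05. The fit was also run on simulated counts in which few genes changed, in the LPS group only, and libraries were drawn independently. These data hold many more changes and libraries linked by letter, so no conclusion is drawn from that run. Libraries of the same letter were alike: all 36 same-letter correlations of deviations from the group means were over 0.1 (0.134 to 0.539). Of 24 libraries, 18 correlated best with their own letter. The median correlation was 0.33 for the same letter and 0.29 for the other letter of a pair (A and B, C and D, or E and F). It was -0.11 for letters of different pairs, so the letters also fell into these pairs. The main fit included neither the letter nor the pair. The members and lists were chosen with earlier results of these data known. Genes named were those with the largest changes in each comparison plus TRIM16, TRIM16L, TRIM25 and TRIM28, and others are marked as chosen after their values were seen.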

Additional observations from a re-analysis of the deposited data

Results flagged for a closer look

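Of 108 groups of 6 libraries tested over the named genes, 9 held a library far from the others (a gap beyond Dixon's critical value), where chance flags about 1 in 20 groups, or 5.4 here. Library F of DCVC_LPS was high for TRIM25 (2418 normalized counts) and TRIM69 (1678). Library E of LPS was low for TRIM14 (2995), TRIM56 (4061) and TRIM62 (81.4). Library F was low for TRIM2 in LPS (473) and in DCVC (2085), library B of DCVC was low for TRIM69 (296), and library D of Control was low for TRIM39 (51).

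The LPS change after DCVC differed from that without it by the interaction test in limma for 13 of the genes named for this comparison. All of these but TRIM28 were named because they were called, so their number follows from the selection. Of all 40 tested members 52.5% were called, beside 45.7% of all tested genes. The log2 difference was above 0 for TRIM2 (2.66), TRIM72 (1.60), TRIM67 (1.56), TRIM54 (1.36), TRIM58 (1.11) and TRIM23 (0.69). It was below 0 for TRIM5 (-2.51), TRIM25 (-2.41), TRIM69 (-2.24), TRIM14 (-2.17), TRIM35 (-1.09), TRIM36 (-1.02) and TRIM28 (-0.42). The call of TRIM28 was lost at equal totals. The calls of TRIM54 and TRIM72 were lost in several fits leaving out a letter or a library, as given above.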

How the results depend on the processing

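At equal totals 9 genes rose and 26 fell in LPS minus Control, 27 rose in DCVC minus Control, 10 fell in DCVC_LPS minus LPS, 4 rose and 22 fell in DCVC_LPS minus DCVC, and 14 lay above 0 in the interaction. This follows from the unequal normalized totals of the groups. With letters E and F alone 5 interactions lay above 0, and the cause was not tested. With these letters 35% of the 40 interactions were called either way, beside 20.6% of all tested genes. Leaving out a letter or a library gave 17 to 17 raised and 14 to 17 lowered in LPS minus Control, 13 to 18 and 9 to 11 in DCVC minus Control, 14 to 14 and 14 to 18 in DCVC_LPS minus LPS, 9 to 11 and 10 to 13 in DCVC_LPS minus DCVC, and 5 to 10 and 12 to 12 in the interaction (5 without letter A and without letter D). In the interaction, between 37.8% and 46.9% of all tested genes were called in those fits. With the letter as a replicate block, 17 rose and 16 fell in LPS minus Control, 18 and 10 in DCVC minus Control, 14 and 17 in DCVC_LPS minus LPS, 13 and 13 in DCVC_LPS minus DCVC, and 10 and 12 in the interaction. In that order, 82.5%, 70%, 77.5%, 65% and 55% of the 40 were called. Over all tested genes the block called 82.9%, 68.1%, 78.8%, 70.1% and 56.4%. The block lost no call and added TRIM72, TRIM13, TRIM28 and TRIM66. Among the genes named in each comparison, signs turned for the changes that follow, and the cause was not tested. Of these, TRIM67 in DCVC_LPS minus DCVC (0.79) and TRIM28 in DCVC_LPS minus LPS (-0.37) were called in the main fit, and the others were not. TRIM16 in LPS minus Control was 0.065 with letters A and B, -0.97 with C and D (called as a fall, limma adjusted p = 0.00658) and 0.31 with E and F, and between -0.35 and 0.085 when a letter or library was left out. TRIM16L there was 0.033 with letters C and D, and between -0.55 and 0.0038 with a letter or library left out. TRIM28 in DCVC minus Control was -0.11 with letters A and B. At equal totals TRIM28 was 0.064 in DCVC_LPS minus LPS and -0.12 in DCVC_LPS minus DCVC. In DCVC_LPS minus DCVC TRIM67 was -0.028 with letters A and B, and TRIM25 was -0.18 at equal totals, -0.052 with letters C and D, and between -0.086 and 0.20 with a letter or library left out. The TRIM16 interaction was -0.12 with edgeR, -0.058 with DESeq2, -0.32 with letters A and B, -0.33 with E and F, and between -0.20 and 0.23 with a letter or library left out. Low counts limit TRIM54, TRIM67, TRIM72 and the LPS and Control values of TRIM16L.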
